A study of Mus musculus with 6 samples.

Results

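A set of 9 genes of hepatic fatty acid handling was followed in livers that had lost the kinase LKB1, namely the nuclear receptor gene Ppara, the peroxisomal enzyme genes Ehhadh and Acaa1b, the target genes Vnn1 and Angptl4, and the acyl-CoA thioesterase genes Acot1, Acot2, Acot3 and Acot4. They were taken from the deposited count table by gene symbol, which gave 9 of 55450 genes, and all 9 were among the 14539 genes with enough counts to be tested. Poly(A) RNA was sequenced from the left liver lobe of 3 LKB1 fl/fl mice, whose LKB1 alleles carry loxP sites, and 3 wild-type (WT) mice, with 1 library per mouse. At 6 weeks of age every mouse, WT included, was given Cre recombinase by AAV8, an adeno-associated virus that infects hepatocytes well, and livers were taken 4 weeks later, at 10 weeks. The strain is labelled C57BL/J, and the promoter that drove Cre is not given in the sources used here. The LKB1 fl/fl group is called knockout below, as its genotype label says, and the genotype of the WT group is labelled normal.

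The libraries held 47659122 to 56147667 counts. Stk11, which encodes LKB1, was at 22.1, 14.4 and 11.4 CPM (counts scaled to a common library size, with TMM, the trimmed mean of M-values) in the knockout libraries and at 66.1, 64.2 and 69.7 CPM in the WT libraries (log2 fold change -2.06 ± 0.247 SE, adjusted p = 0.0167 in edgeR, and 0.000659 to 0.104 with 1 library left out). Replicate 1 of each group carried Xist counts (42472 and 29243) and almost no Y-linked counts, and the other 4 libraries carried 6146 to 8199 Y-linked counts. The labels do not mention this, and results are therefore also given for these 4 (2 against 2, the Y-linked set below) and for the first replicates (1 against 1, the Xist pair below, which has no replicate check). Hepatocyte markers were abundant in every library, with Alb at 10394 CPM or more. Their summed level was 26700 to 70300 CPM in the knockout livers against 77400 to 118000 CPM in WT. Alb was the largest part of that sum, at 50550, 10394 and 17534 CPM in knockout and at 95626, 69977 and 57064 CPM in WT. Of the 7 markers 3 were lower and 3 higher in every knockout library. Liver endothelial markers also moved with the groups, since 6 of 7 were lower in every knockout library. Their summed level was 75.5 to 129 CPM against 156 to 214 CPM in WT. Of all tested genes, 15.5% were lower and 16.9% higher in every knockout library. In edgeR 0 of the 7 endothelial markers passed the threshold used below (lowest adjusted p = 0.0626, for Kdr). Of the 7 hepatocyte markers 1 passed, Tat, which was higher in knockout (adjusted p = 0.0344). The summed level of T, B and NK cell markers was 0.509 to 1.42 CPM against 1.47 to 2.29 CPM, and those of macrophage, stellate and bile duct markers overlapped. Of 6 adipocyte markers 5 stayed under 0.5 CPM, with Adipoq, Lep, Plin1 and Retn at 0.0641 CPM at most. The part of other cell types in the differences below was not tested.

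PPAR-alpha, the product of Ppara, is a nuclear receptor that is activated by fatty acids and binds DNA as a dimer with RXR. In the liver it is known for raising the genes of peroxisomal, microsomal and mitochondrial fatty acid oxidation during fasting. Acyl-CoA thioesterases split fatty acyl-CoA into free fatty acid and coenzyme A, and several of their genes are induced by PPAR-alpha.

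In the knockout livers 6 of the 9 transcripts (Ppara, Ehhadh, Acaa1b, Vnn1, Angptl4 and Acot1) were lower in every knockout library than in every WT library, whereas Acot2, Acot3 and Acot4 overlapped between the groups. Such a separation downwards was found for 15.5% of all tested genes, and one in either direction for 32.4%. When edgeR's quasi-likelihood test was run over the 6 libraries with p-values adjusted over all tested genes, 1 of the 9 fell past the threshold of 0.05, Acot1, and 0 rose, against 3.37% of all tested genes in either direction, 1.22% as lower and 2.15% as higher. Without adjustment 4 of the 9 genes were under 0.05, against 26.3% of all tested genes. DESeq2 called 4 of the 9, all as lower (Acot1, Ehhadh, Angptl4 and Ppara), where it called 15.8% of all tested genes, 7.01% as lower and 8.74% as higher. Limma voom called Acot1 and Ehhadh as lower, where it called 2.97% of all tested genes, 1.22% as lower and 1.75% as higher. The median log2 fold change of the 9 genes was -1.24 and that of all tested genes was 0.01. In bulk tissue, fewer cells of a type and less RNA per cell cannot be told apart.

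**Figure D1:**
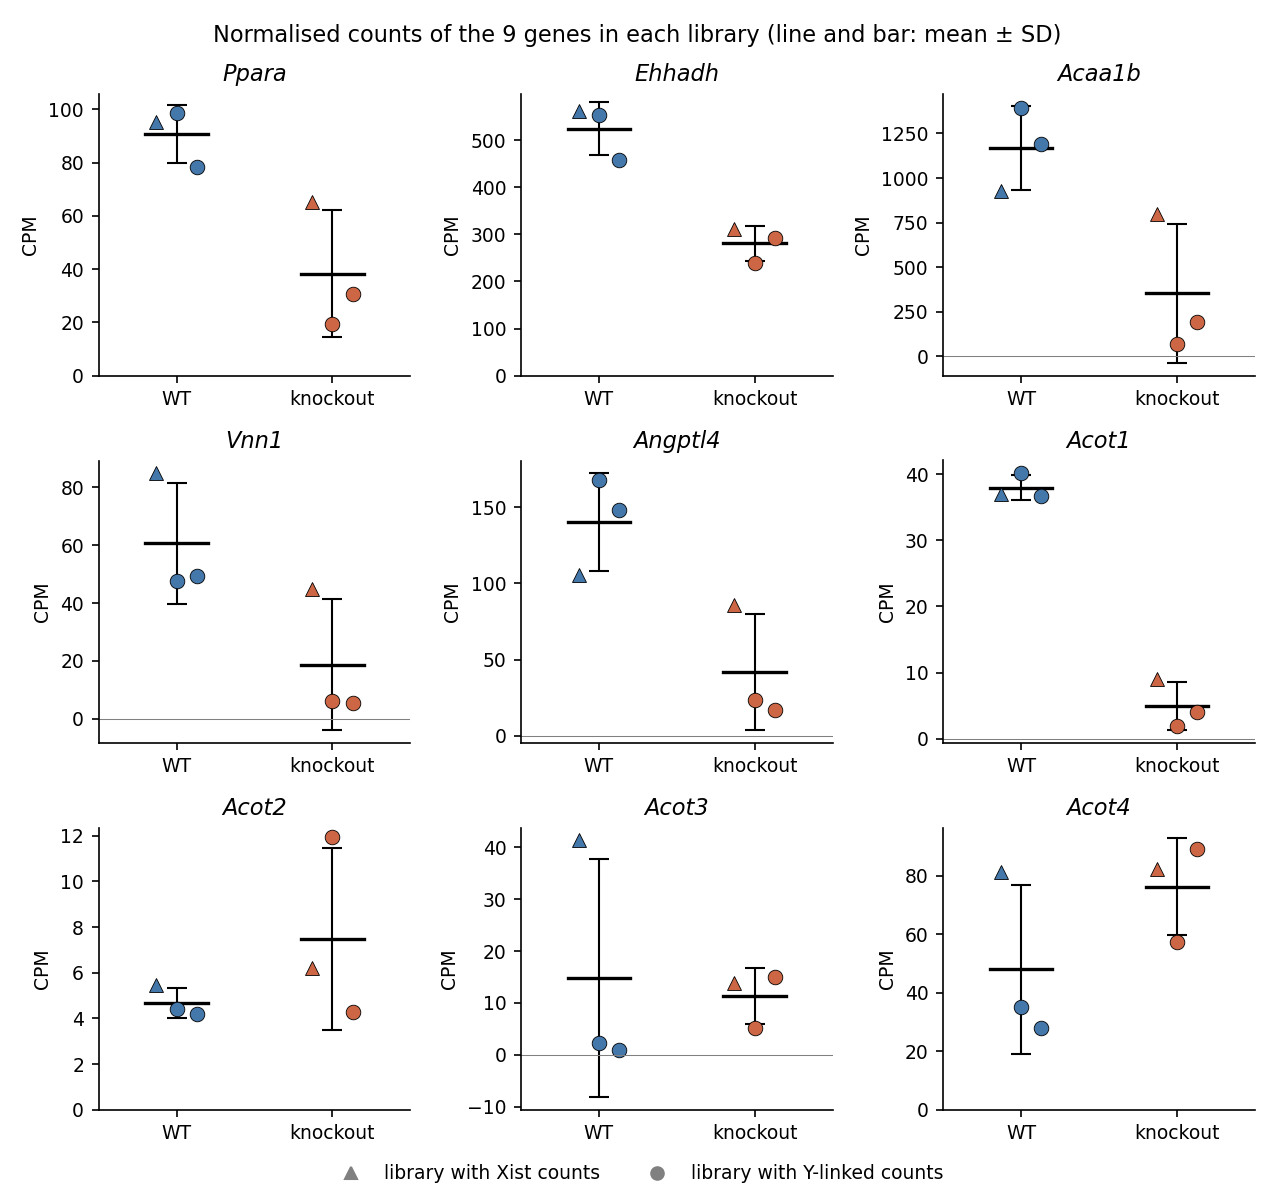
CPM of the 9 genes in each library, by group, with the mean and SD of 3 libraries (linear axes; an SD bar below 0 means only that the SD exceeded the mean). Triangles are the libraries with Xist counts and circles those with Y-linked counts. For Acaa1b and Angptl4 the knockout triangle lies near the WT triangle, and for Vnn1 it lies near the WT circles only. Both knockout circles of these genes lie far below the WT points.

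Ppara itself (ENSMUSG00000022383.13) is a protein-coding gene on the plus strand of chromosome 15, from 85734983 to 85802819 (GRCm38, as for all positions here). It was at 65.1, 19.3 and 30.5 CPM in knockout 1 to 3 and at 95.4, 98.5 and 78.3 CPM in WT 1 to 3. The groups did not overlap, and knockout 1 was the highest of the knockout libraries. The means were 38.3 ± 23.9 and 90.7 ± 10.9 CPM (SD, n = 3 each). The log2 fold change of -1.24 ± 0.418 (SE) missed the threshold in edgeR (adjusted p = 0.125). In the Y-linked set Ppara fell by 1.83 on the log2 scale (adjusted p = 0.00527), while its log2 ratio in the Xist pair was -0.55.

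Ehhadh (ENSMUSG00000022853.7; chromosome 16, 21761287 to 21787807, minus strand, protein-coding) encodes the bifunctional enzyme that carries out hydration and dehydrogenation in peroxisomal beta-oxidation. It was at 312, 239 and 292 CPM in knockout and at 561, 554 and 459 CPM in WT, with no overlap. Its log2 fold change of -0.90 ± 0.182 over the 6 libraries compared with -0.94 in the Y-linked set and a log2 ratio of -0.85 in the Xist pair. Its adjusted p-value of 0.0505 lay just above the threshold over the 6 libraries. It passed with library size alone as the scaling, with no filter on low counts, in DESeq2, in limma voom and with the Xist or Y-linked state as a term (adjusted p = 0.0354). With 1 library left out it passed without knockout 1 only (adjusted p = 0.0098, against 0.111 to 0.221 for the others).

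Acaa1b (ENSMUSG00000010651.4; chromosome 9, 119148023 to 119157093, minus strand, protein-coding) encodes a thiolase for the last step of the same peroxisomal cycle. It was at 799, 66.9 and 194 CPM in knockout and at 925, 1391 and 1189 CPM in WT, so that knockout 1 lay near WT 1 while knockout 2 and 3 lay far below all WT libraries. The log2 fold change was -1.73 ± 0.81 over the 6 libraries (adjusted p = 0.229) and -3.31 ± 0.527 in the Y-linked set (adjusted p = 0.00842), against a log2 ratio of -0.21 in the Xist pair. Reads of Acaa1b can be shared with its close copy Acaa1a. Of the 1614 stretches of 76 bases, the read length, in the longest Acaa1b transcript, 28.3% occur letter for letter in a transcript of Acaa1a and 9.23% in Dlec1, which overlaps it on the opposite strand and had at most 0.549 CPM. Acaa1a, chosen after its values were seen, was at 112.9, 90.4 and 97.8 CPM in knockout and at 137, 174 and 167 CPM in WT (log2 fold change -0.67, adjusted p = 0.0676).

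Vnn1 (ENSMUSG00000037440.8; chromosome 10, 23894688 to 23905343, plus strand, protein-coding) encodes a pantetheinase, which releases the coenzyme A precursor pantothenate and cysteamine. It was at 44.8, 6.05 and 5.39 CPM in knockout and at 84.9, 47.7 and 49.4 CPM in WT. Replicate 1 was the highest library of each group, and the log2 ratio in the Xist pair was -0.92. The log2 fold change over the 6 libraries was -1.69 ± 0.828 (adjusted p = 0.245). In the Y-linked set Vnn1 fell by 3.09 on the log2 scale (SE 0.116, adjusted p = 0.000264), the smallest adjusted p-value of the 9 genes in that fit.

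Angptl4 (ENSMUSG00000002289.16; chromosome 17, 33773750 to 33781830, minus strand, protein-coding) encodes a secreted inhibitor of lipoprotein lipase. It was at 85.9, 23.2 and 16.9 CPM in knockout and at 105, 168 and 148 CPM in WT. The groups did not overlap, and the distance between knockout 1 and WT 1 was small. The log2 fold change was -1.74 ± 0.608 over the 6 libraries (adjusted p = 0.136), and Angptl4 fell by 2.98 in the Y-linked set (adjusted p = 0.00067). The Xist pair had a log2 ratio of -0.29.

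The Xist pair and the Y-linked set gave unequal values for several of these genes, and an interaction of group and state was fitted, the state being the presence of Xist or of Y-linked counts. Its spread comes from the Y-linked set alone, since the Xist pair holds 1 library per group. The state cannot be told apart from the single mice knockout 1 and WT 1. Stk11 itself had a log2 ratio of -1.58 in the Xist pair and a log2 fold change of -2.38 in the Y-linked set. Knockout 1 kept the most Stk11 of the knockout libraries, so the state cannot be told apart from the extent of Stk11 loss either. As the split was already visible in the values above, the fit describes its size and is no independent support for it. Vnn1 (interaction 2.16 ± 0.186 SE on the log2 scale, adjusted p = 0.00853) and Angptl4 (2.69 ± 0.316, adjusted p = 0.0193) passed the threshold in edgeR, where 2.9% of all tested genes passed. A further 5 of the 9 genes had an unadjusted p-value under 0.05 only, against 20.9% of all tested genes for the unadjusted threshold, and Ehhadh (adjusted p = 0.905) and Acot2 (adjusted p = 0.643) were above it. With the state as an additional term and no interaction, Ehhadh, Vnn1 and Acot1 passed as lower, where 10.3% of all tested genes passed, 4.99% as lower and 5.36% as higher. Within the Y-linked set 8 of the 9 genes passed, 6 as lower and 2 as higher. In that comparison 33.3% of all tested genes passed, 16.1% as lower and 17.2% as higher.

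**Figure D2:**
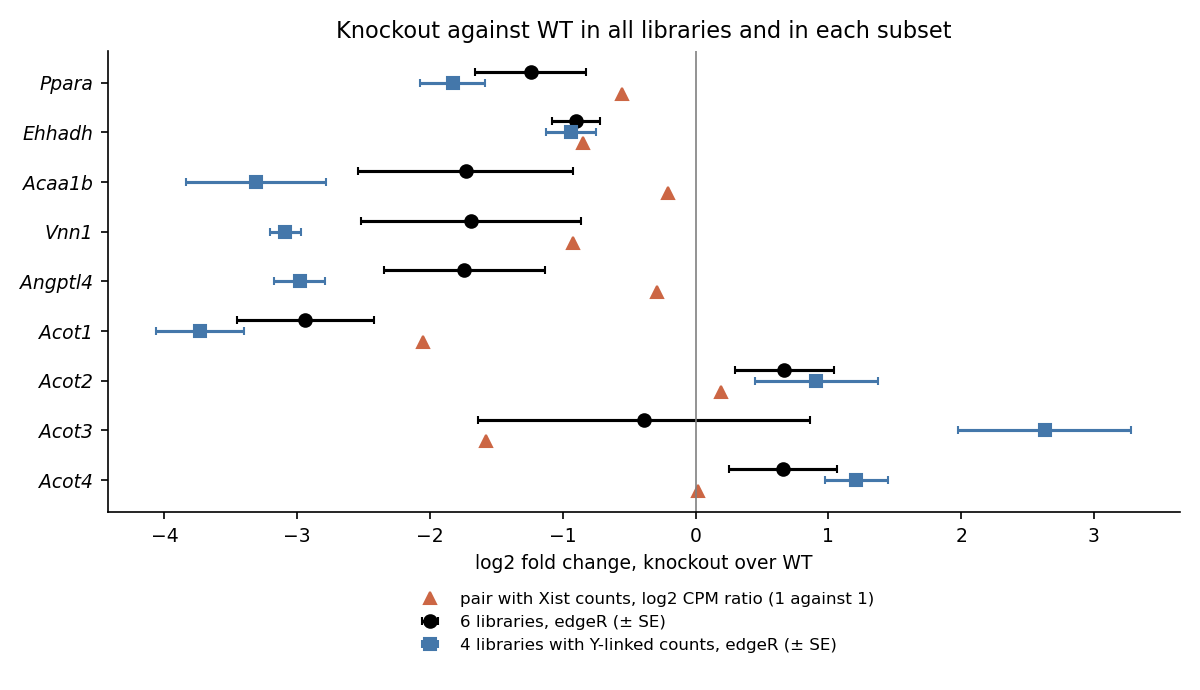
Log2 fold change of knockout over WT for the 9 genes in all 6 libraries and in the Y-linked set of 4 libraries (edgeR, bars are SE), and the log2 CPM ratio in the single Xist pair. Ehhadh lies between -0.94 and -0.85 in all 3, and Acot3 lies at 2.63 in the Y-linked set and at -1.58 in the Xist pair.

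The 4 thioesterase genes lie next to each other on the plus strand of chromosome 12 within 72.5 kb, in the order Acot2 (ENSMUSG00000021226.7; 83987861 to 83993873), Acot1 (ENSMUSG00000072949.6; 84009490 to 84018371), Acot4 (ENSMUSG00000052392.5; 84038379 to 84048601) and Acot3 (ENSMUSG00000021228.15; 84052144 to 84060402), and all are protein-coding. Acot1 is cytosolic, Acot2 is mitochondrial, and Acot3 and Acot4 are peroxisomal enzymes. Their coding sequences are close copies, which bears on every count below. Acot1 and Acot2 are 95.5% identical over 1239 aligned coding bases, with a longest identical run of 273 bases, while Acot3 and Acot4 are 75.2% identical. A read inside such a run cannot be placed by its sequence alone, and the counting program divides such reads by estimate. The following stretches of the coding strand from GENCODE M21 show both cases. The first pair of lines is the stretch of 80 aligned bases in which Acot1 (chr12:84016926-84017005) and Acot2 (chr12:83992648-83992727) differ most, with the 14 differing bases in capitals, and the third line is the read-length stretch that follows directly in Acot1 (chr12:84017006-84017081) and in Acot2 (chr12:83992728-83992803), where they are identical.
Acot1: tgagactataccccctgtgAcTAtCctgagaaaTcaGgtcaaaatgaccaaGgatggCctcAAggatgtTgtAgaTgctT
Acot2: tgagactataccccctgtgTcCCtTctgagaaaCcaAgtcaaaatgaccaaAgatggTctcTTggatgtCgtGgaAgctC
Acot1 and Acot2: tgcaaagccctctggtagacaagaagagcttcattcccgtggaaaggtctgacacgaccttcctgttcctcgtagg

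Of the 76-base stretches of the longest protein-coding transcript, 19.6% of Acot1 occur in Acot2 and 20.3% of Acot2 occur in Acot1. Acot1 shares 5.83% with Acot3 and 1.5% with Acot4. Acot3 shares 10.5% with the overlapping gene Gm49366 and 7.09% with the antisense gene 4732463B04Rik, and Acot4 shares 9.97% with the latter. These overlapping genes had at most 0.769 and 0.255 CPM. The libraries were read from both ends, so a pair is ambiguous only where both of its reads are. Ppara, Ehhadh, Vnn1 and Angptl4 share 0 such stretches with any other annotated gene.

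Acot1 was at 8.97, 1.91 and 3.97 CPM in knockout and at 37.1, 40.2 and 36.7 CPM in WT. The 3 WT libraries lay close together, and every knockout library lay far below them. Acot1 fell by 2.94 on the log2 scale (SE 0.517, a 7.66-fold difference; adjusted p = 0.0383, edgeR). It fell by 3.73 in the Y-linked set, and its log2 ratio in the Xist pair was -2.05. The call rested on all of the libraries but knockout 1, since the adjusted p-value was 0.00166 without knockout 1, 0.0564 without knockout 2, 0.176 without knockout 3, and 0.0769, 0.169 and 0.159 without WT 1, 2 and 3.

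Acot2 was at 6.19, 11.9 and 4.27 CPM in knockout and at 5.44, 4.42 and 4.19 CPM in WT. Knockout 2 was the highest library and the others lay between 4.19 and 6.19 CPM, so that the difference did not exceed the spread (log2 fold change 0.67 ± 0.372, adjusted p = 0.296). Acot1 and Acot2 summed, a sum chosen after seeing the data that does not depend on how reads were divided between them, came to 15.2, 13.8 and 8.23 CPM in knockout and to 42.5, 44.6 and 40.9 CPM in WT. Acot1 held 59.2%, 13.8% and 48.2% of this sum in knockout and 87.2%, 90.1% and 89.8% in WT.

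Acot3 was at 13.8, 5.10 and 15.0 CPM in knockout and at 41.4, 2.31 and 0.898 CPM in WT. The WT libraries spanned the whole range, with WT 1 above and WT 2 and 3 below every knockout library. Its log2 fold change over the 6 libraries was -0.39 ± 1.25 (adjusted p = 0.864). It was 2.63 ± 0.65 in the Y-linked set (adjusted p = 0.0303), where both knockout libraries were higher, and the Xist pair had a log2 ratio of -1.58.

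Acot4 was at 82.2, 57.4 and 89.0 CPM in knockout and at 81.2, 35.1 and 28.0 CPM in WT. WT 1 matched the knockout libraries, and WT 2 and 3 were lower than all of them. The log2 fold change over the 6 libraries was 0.66 ± 0.407 (adjusted p = 0.339). Acot4 rose by 1.21 ± 0.236 in the Y-linked set (adjusted p = 0.0151), and its log2 ratio in the Xist pair was 0.02. Within WT, the library with Xist counts exceeded the mean of the other WT libraries by 4.69 on the log2 scale for Acot3 and by 1.37 for Acot4, whereas within knockout these values were 0.46 and 0.17. For Acot1 the WT value was -0.05 and the knockout value was 1.61.

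The sum of the 4 genes differed less than its parts. It was 111, 76.4 and 112 CPM in knockout and 165, 82.0 and 69.8 CPM in WT, with means of 99.9 ± 20.4 and 106 ± 51.8 CPM (SD, n = 3 each). The makeup of the sum was different. Acot1 held 8.08%, 2.51% and 3.54% of it in knockout and 22.5%, 49.0% and 52.6% in WT. Acot4 held 73.9%, 75.2% and 79.3% in knockout and 49.2%, 42.8% and 40.1% in WT. These are shares of counts not divided by exon length, which is 6674 bases for Acot4 and 3919 for Acot1. The shares are also tied, so that a lower Acot1 count by itself raises the share of Acot4. The CPM of Acot4 overlapped between the groups. No test was made on this sum, which is a score over chosen genes.

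**Figure D3:**
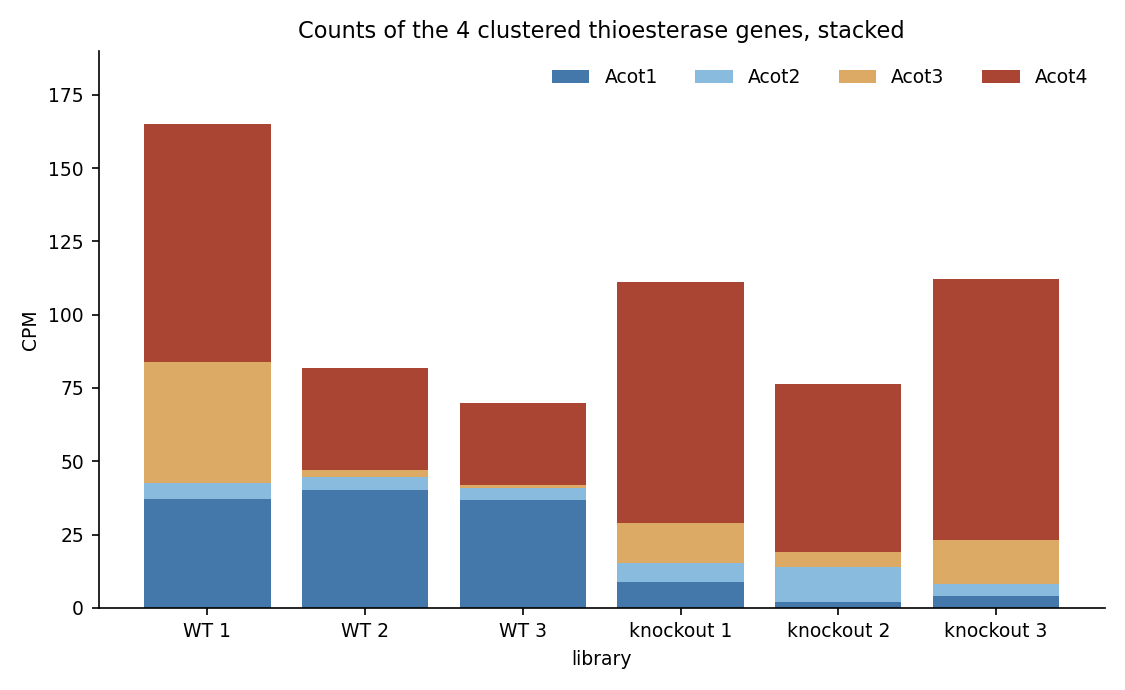
CPM of Acot1 to Acot4 stacked for each library, on an axis that starts at 0. The Acot1 block shrinks from 36.7 to 40.2 CPM in WT to 1.91 to 8.97 CPM in knockout, Acot4 makes up most of each knockout bar, and the Acot3 block is large only in WT 1.

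Levels of different genes can be compared once divided by the annotated exon length. On the scale of mean CPM per kilobase in WT, Acaa1b came first at 596 and Ehhadh second at 176, followed by Angptl4 (39.6), Vnn1 (25.1), Ppara (23.7), Acot1 (9.69), Acot4 (7.20), Acot3 (4.32) and Acot2 (2.13). Acaa1b was above Ehhadh, and Ehhadh above the other genes, in every WT library. Neighbours from Angptl4 (29.7 to 47.4) to Vnn1 (19.7 to 35.1) and Ppara (20.4 to 25.7) overlapped in their range over the WT libraries, as did Acot1 (9.37 to 10.2), Acot4 (4.19 to 12.2), Acot3 (0.261 to 12.0) and Acot2 (1.91 to 2.48). In knockout the means were 180 for Acaa1b, 94.3 for Ehhadh, 11.9 for Angptl4, 11.4 for Acot4, 9.98 for Ppara, 7.77 for Vnn1, 3.40 for Acot2, 3.29 for Acot3 and 1.26 for Acot1. Between neighbours in this order the libraries' ranges overlapped for every pair but Ehhadh and Angptl4. Acot1 was thus the highest of the 4 thioesterase genes in WT 2 and WT 3, and Acot4 was the highest of them in every knockout library and in WT 1. In WT 1 the level of Acot4 was 12.2 CPM per kilobase, close to that of Acot3 at 12.0.

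Promoter sequences, from 250 bases before to 50 bases after the start of the transcript, were given for 7 of the 9 genes in the RefSeq table (build GRCm38.p6), in 8 windows; Vnn1 and Angptl4 had none. The windows were searched on both strands for AGGNCANAGGNCA, the direct repeat spaced by 1 base that PPAR-alpha and RXR are known to bind, and for its half-site AGGTCA, which is one spelling of each arm of the repeat. The direct repeat was in 0 of the 8 windows and in 0.381% of all 32851 windows. The half-site was in the window of Acot4, at position -13 on the opposite strand, and in both windows of Acot3, after the start, and it was in 16.3% of all windows. The 250 bases before the start are shown for Acot1, which fell, and for Acot4, its neighbour with the largest share of the thioesterase counts in knockout. Only the half-site AGGTCA, on either strand, is in capitals. Other spellings of an arm, such as the aggcca in the Acot1 stretch, are not marked. The stretches of Acot1 and Acot4 are 56.5% identical over 223 aligned bases, against 76.6% for the coding sequences of the same 2 genes. The 250 bases before the start of Acot1 and of Acot2 are 53.4% identical. Both are on the plus strand, at chr12:84009252-84009501 for Acot1 and chr12:84038129-84038378 for Acot4. A match describes letters only, and the lack of one says only that these letters are not in these windows.
Acot1: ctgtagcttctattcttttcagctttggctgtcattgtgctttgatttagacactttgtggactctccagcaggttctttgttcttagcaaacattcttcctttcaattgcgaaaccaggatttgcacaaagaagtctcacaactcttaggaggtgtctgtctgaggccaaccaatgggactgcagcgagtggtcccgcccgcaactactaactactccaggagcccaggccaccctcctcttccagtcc
Acot4: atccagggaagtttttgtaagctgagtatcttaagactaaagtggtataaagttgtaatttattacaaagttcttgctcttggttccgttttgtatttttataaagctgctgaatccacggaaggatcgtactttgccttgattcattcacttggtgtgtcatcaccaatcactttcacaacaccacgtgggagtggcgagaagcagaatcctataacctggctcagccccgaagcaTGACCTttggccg

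The other genes of the pathway were followed through 8 lists with 139 genes, of which 133 were tested. For comparison with every list below, 26.3% of all tested genes had an unadjusted p-value under 0.05. In either direction edgeR called 3.37% of all tested genes, DESeq2 15.8% and limma voom 2.97%. Over the 6 libraries 1 of the 133 list genes passed the threshold in edgeR, Ppargc1a, the gene of a coactivator of PPAR-alpha. Ppargc1a was at 24.7, 75.2 and 76.4 CPM in knockout and at 12.3, 5.75 and 4.28 CPM in WT, so it rose while its partner Ppara was lower. Its log2 fold change was 2.98 ± 0.565 (adjusted p = 0.0446), and its adjusted p-value reached 0.211 when single libraries were left out. It was the only call among 26 genes of nuclear receptor partners and cofactors, whose median log2 fold change was 0.05. Hnf4a, the most abundant of them, was at 612 ± 64.8 against 533 ± 7.78 CPM (SD, n = 3; adjusted p = 0.47).

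Of 23 peroxisomal oxidation genes besides the members, 0 passed in edgeR over the 6 libraries, 10 had an unadjusted p-value under 0.05, and all 10 whose groups did not overlap were lower in knockout, a direction in which 15.5% of all tested genes separated. DESeq2 called 7 of them and limma voom 1, all as lower, where these tools called 7.01% and 1.22% of all tested genes as lower. The median log2 fold change was -0.36. In the Y-linked set 11 of the 23 fell and 1 rose, where 16.1% of all tested genes passed as lower and 17.2% as higher. Pex11a, which acts in peroxisome division and was chosen, like Crot, after its values were seen, had a log2 fold change of -1.31 (adjusted p = 0.0526), and Crot, a peroxisomal carnitine acyltransferase, one of -1.67 (adjusted p = 0.109). Scp2, the most abundant gene of the list, overlapped between the groups (adjusted p = 0.598).

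The 9 microsomal omega-oxidation genes had the lowest median of the 8 lists, -1.36, with 0 genes passing in edgeR, 5 at an unadjusted p-value under 0.05, 5 in DESeq2 (1 higher, 4 lower) and 1, higher, in limma voom. Cyp4a14, a fatty acid omega-hydroxylase and the most abundant of them, was at 441, 94.8 and 333 CPM in knockout and at 1386, 952 and 529 CPM in WT (adjusted p = 0.133). Its log2 fold change was -1.80 in the Y-linked set and its log2 ratio in the Xist pair was -1.65. Cyp4a10, chosen after its values were seen, was at 245, 20.5 and 100.3 CPM against 773, 676 and 476 CPM (adjusted p = 0.12). Counts of the Cyp4a genes other than Cyp4a14 depend on how reads were divided within their cluster. The expected counts of Cyp4a14 were whole numbers in every library. Cyp4f15 was the one gene of the list that was higher in every knockout library, at 170 ± 11.1 against 110 ± 5.91 CPM (SD, n = 3; adjusted p = 0.0536); it was chosen after its values were seen.

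Mitochondrial targets were mixed in direction. Of those tested 3 were lower and 3 higher in every knockout library, where 15.5% and 16.9% of all tested genes were. In the Y-linked set 4 passed as lower and 2 as higher, where 16.1% and 17.2% of all tested genes did. Of 18 tested genes 0 passed in edgeR, 4 had an unadjusted p-value under 0.05, 3 passed in DESeq2 (1 higher, 2 lower) and 0 in limma voom, and the median was -0.07. Cpt1a, which controls entry of fatty acids into mitochondria, was at 465 ± 194 against 331 ± 31.1 CPM (adjusted p = 0.335), and Pdk4, a kinase that restrains pyruvate oxidation, was at 25.5 ± 4.96 against 25.5 ± 3.80 CPM (SD, n = 3; adjusted p = 0.998); both were chosen after their values were seen.

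Genes of fatty acid uptake, storage and secreted factors went both ways. Of 24 tested genes 0 passed in edgeR, 8 had an unadjusted p-value under 0.05, 7 passed in DESeq2 (5 higher, 2 lower) and 0 in limma voom, and the median was 0. Fabp1, the abundant fatty acid binding protein of hepatocytes, was at 1589, 52.8 and 105 CPM in knockout and at 3095, 3636 and 3634 CPM in WT, with knockout 2 and 3 far below the rest (adjusted p = 0.227 over the 6 libraries, 0.00112 in the Y-linked set). Plin5, a lipid droplet protein, was at 79.4 ± 25.7 against 36.2 ± 6.04 CPM (adjusted p = 0.0618), and Fgf21, a secreted hormone known as a PPAR-alpha target, was at 3.14, 9.25 and 1.72 CPM against 1.44, 0.424 and 0.877 CPM (adjusted p = 0.103). These 3 were chosen after their values were seen. Scd1, the most abundant gene of the list, overlapped between the groups (adjusted p = 0.901).

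Among the other thioesterases 0 of 10 tested genes passed in edgeR, with 4 at an unadjusted p-value under 0.05, 3 in DESeq2 and 0 in limma voom, and all 4 whose groups did not overlap were higher in knockout. Of all tested genes 16.9% were higher in every knockout library and 8.74% were called as higher by DESeq2. Them4 was at 32.0 ± 4.42 against 17.8 ± 3.14 CPM (adjusted p = 0.0507). Acot6, which lies further along the same cluster on chromosome 12, beyond Acot5, was at 3.40, 3.24 and 2.61 CPM in knockout and at 2.03, 0.868 and 0.834 CPM in WT (adjusted p = 0.103); both were chosen after their values were seen. Baat, the most abundant gene of the list, which joins bile acids to amino acids, overlapped between the groups (adjusted p = 0.417). For coenzyme A synthesis and breakdown 0 of 13 passed in edgeR, with 3 at an unadjusted p-value under 0.05, 2 in DESeq2 and 0 in limma voom. The coenzyme A hydrolase genes Nudt7 and Nudt19 had log2 fold changes of -2.07 and 1.34 over the 6 libraries. The groups overlapped for Nudt7, where knockout 1 lay above WT 1. Nudt7 was at 209, 89.9 and 88.2 CPM in knockout and at 169, 678 and 782 CPM in WT, and Nudt19, chosen after its values were seen, was at 49.5, 96.7 and 111.9 CPM against 35.4, 33.3 and 32.9 CPM (adjusted p = 0.10 and 0.0555). For angiopoietin-like proteins and lipases 0 of 10 passed in edgeR, with 3 at an unadjusted p-value under 0.05, 2 in DESeq2 and 0 in limma voom. Their median log2 fold change was -0.50, with 8 of 10 below 0 and 3 lower in every knockout library. Over all tested genes, 7129 of 14539 were below 0 and 15.5% were lower in every knockout library.

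**Figure D4:**
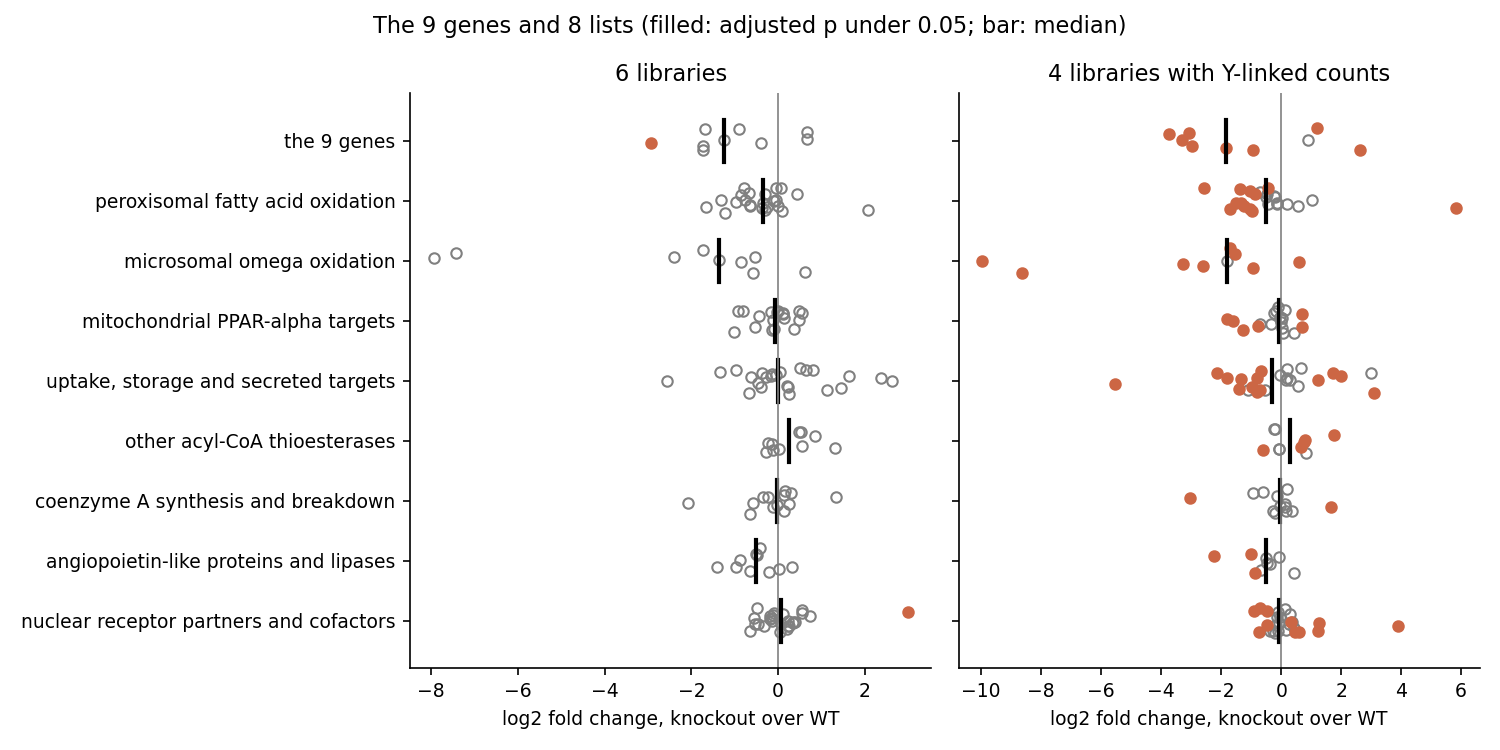
Log2 fold change of every tested gene of the 8 lists and of the 9 genes, over all 6 libraries (left) and in the Y-linked set of 4 libraries (right; the 2 panels have separate linear axes). Filled points passed an adjusted p-value of 0.05 in edgeR and bars are medians; on the left only Acot1 and Ppargc1a are filled, and the medians of the 9 genes (-1.24), of microsomal oxidation (-1.36), of angiopoietin-like proteins and lipases (-0.50) and of peroxisomal oxidation (-0.36) lie furthest below 0.

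Across the 6 libraries the pattern of Ppara on the log2 CPM scale was most like those of Tmem254c, Bbox1, Serpinf2, Nipsnap3b and Col18a1, with Pearson coefficients from 0.9972 to 0.999. Counts of Tmem254c depend on how reads were divided among its near-identical copies, and Bbox1 encodes the last enzyme of carnitine synthesis. All 5 were lower in every knockout library, with log2 fold changes from -1.05 to -0.56, and 0 of them passed the threshold in edgeR. Acot1 was most like Mpdz, Cbfa2t3, Pold2, Cyp51 and Bco2 (0.9965 to 0.9975), of which Pold2, Cyp51 and Bco2 had log2 fold changes of -1.52, -2.45 and -1.68 and passed the threshold (adjusted p = 0.0451, 0.0285 and 0.0226). Cyp51 is an enzyme of cholesterol synthesis and Bco2 splits carotenoids. With 6 libraries in 2 groups such coefficients are common, since 562 of 11964 genes reached 0.95 with Ppara and 496 with Acot1, and they describe the libraries only.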

How the data were processed

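Liver RNA of 6 mice (3 knockout, 3 WT, grouped by title) was analysed from 1 deposited table of expected counts that the authors made per gene, summing to 47659122 to 56147667 per library. Per the submitters' processing notes, bcl2fastq 2.17, cutadapt 1.18, STAR 2.7.0f and RSEM 1.3.1 were used and the build was mm9; all 55450 versioned gene identifiers were instead found in GENCODE M21 (GRCm38), from which positions were taken. The use of strand is not given in the sources used here. Expected counts were rounded; filterByExpr kept 14539 genes; edgeR 4.0.16 in R 4.3.3 fitted the quasi-likelihood test with TMM scaling and the group as the only term, with Benjamini-Hochberg adjustment over all genes tested and a threshold of 0.05. The SE is the log2 fold change divided by the square root of F. Alternatives were DESeq2 1.42.0, limma 3.58.1 voom, other scalings, no filter, other terms and left-out libraries. Log2 CPM used a prior count of 2. On simulated data with 14329 genes tested the test recovered 59.2% of 98 genes changed by 2 on the log2 scale and 7.22% of 97 changed by 1, with 5 false among 70 calls; with no changed gene it made 3 calls. Named genes were Stk11, the 9 genes, list genes past the threshold or else the most abundant, and the 5 genes most like Ppara and Acot1; others are marked as chosen later, and some list genes are counted but not reported by name here. The members and lists were chosen with earlier results of these data known.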

Additional observations from a re-analysis of the deposited data

Results flagged for a closer look

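The interaction of group and state, fitted in edgeR and adjusted over all genes, passed the threshold for 2.9% of all tested genes. Other list genes that are not named here passed as well, and Fabp1, Nudt19 and Cyp4a12a were named after their values were seen. Of the genes named here 7 passed. Among the 9 genes these were Angptl4, with an interaction of 2.69 on the log2 scale (SE 0.316, adjusted p = 0.01926), and Vnn1, with 2.16 (SE 0.186, adjusted p = 0.008526). Among list genes the values were 4.56 for Fabp1 (adjusted p = 0.03055), 3.34 for Nudt7 (adjusted p = 0.007614), -2.91 for Ppargc1a (adjusted p = 0.01029) and -1.17 for Nudt19 (adjusted p = 0.04998). For Cyp4a12a, a fatty acid hydroxylase chosen after its values were seen, it was 16.17 (adjusted p = 0.007614). The size of this value rests on 1 WT library with 4 counts. WT 1 had 0.0789 CPM where WT 2 had 631 CPM and WT 3 had 617 CPM. Its knockout libraries had 6.02, 1.04 and 0.17 CPM. The interaction is the log2 difference in the Xist pair minus that in the Y-linked set, and the Xist pair holds 1 library of each group, so that the spread comes from the Y-linked set alone and the state cannot be told apart from these single mice.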

How the results depend on the processing

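Over 6 libraries 490 genes passed. The count was 771 with no filter on low counts, 2290 in DESeq2, 105 with the replicate block, 1504 with the Xist or Y-linked state as a term and 4847 in the Y-linked set, and from 6 (without WT 2) to 4473 (without knockout 1) with 1 library left out. Of the 9 genes 1 passed; 2 passed with library size alone, 2 with no filter, 4 in DESeq2, 2 in limma voom, 3 with the state term, 8 in the Y-linked set, 0 with the replicate block, 0 of the remaining 5 with Acot1 to Acot4 merged, and 0 to 6 with 1 library left out. Of the list genes 1 passed; 5, 7, 33, 3, 15 and 61 passed with library size alone, no filter, DESeq2, limma voom, the state term and the Y-linked set, 0 with the replicate block and 0 to 54 with 1 library left out. The interaction called 421 genes, and 1607 with no filter. The deviations of same-numbered libraries correlated at 0.178, 0.0443 and 0.0679, but those of knockout 3 with WT 2 at 0.203 and of knockout 2 with WT 3 at 0.12. Between libraries with Y-linked counts the same-numbered coefficients were thus no higher than the others. The deviations were taken from the mean of all 3 libraries of a group, replicate 1 included. They therefore cannot show likeness within the Y-linked set alone. Knockout 1 and WT 1 share the Xist state as well as a number, and knockout 1 correlated at -0.155 with WT 2 and at -0.131 with WT 3. With the replicate block Acot1 had an adjusted p-value of 0.0663. Acot3 changed sign to 1.15 in limma voom, 1.09 with the replicate block, 1.31 with the state term and 2.63 in the Y-linked set, and ranged from -0.95 to 2.81 (without WT 1) with 1 library left out. Values near 0 also changed sign with 1 library left out, Scd1 from -1.23 to 0.31 and Pdk4 from -0.12 to 0.16. Pdk4 was at 0.03 in the Y-linked set, 0.03 with library size alone and 0 with the state term. The cause was not tested. The log2 ratio of summed Acot1 to Acot4 was -0.08, 0.31 in the Y-linked set, and -0.31 to 0.39 with 1 library left out. The other 8 of the 9 genes kept their direction in every alternative.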
